A study of Mus musculus with 4 samples.

Results

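Interferon-stimulated genes are the genes that cells switch on when interferons, the secreted signals of antiviral defence, bind their receptors. Their signal was examined here on 4 arrays of mouse tumour cells. The genes were taken from a named list of 37 that covers antiviral effectors, RNA sensors and regulators of the response. Of these, 34 had a probe set that the array annotation gives to that gene alone, out of 19938 such genes on the array. Isg15 and Gbp2 lie only on probe sets shared with another gene and Ifi44 has no probe set in the annotation used, so these 3 were not analysed here. The rule that picks the members uses their names and no measured value, although the list was drawn up with earlier results of these data known.

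The cells were lines 365 and 167, each grown from a soft tissue tumour that had lost Smarcb1 in a p53-null, Smarcb1-heterozygous mouse of mixed C57BL6/SV129J background. Cells of each line received either the pMIG retroviral vector with Smarcb1 (Smarcb1 cells) or pMIG with no insert (empty-vector cells), and total RNA was taken 3 days later. The groups were thus Smarcb1 cells of line 365, empty-vector cells of line 365, Smarcb1 cells of line 167 and empty-vector cells of line 167, with 1 array each. All 4 samples had passed through retroviral infection and all lacked p53, and no uninfected culture is part of the comparison. The sources used here do not give the share of infected cells or any repeat cultures, and each line stands for 1 tumour.

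Type I interferons act through a receptor made of IFNAR1 and IFNAR2, which uses the kinases JAK1 and TYK2 to phosphorylate STAT proteins. STAT2, a partner STAT protein and IRF9 form the complex ISGF3, which binds a DNA element called the interferon-stimulated response element and raises the genes described here. The response can begin when RIG-I or MDA5 senses viral or misplaced cellular RNA in the cytoplasm, and its products then block viral entry, translation or release. SMARCB1 belongs to SWI/SNF, a complex that moves nucleosomes, and its loss is the hallmark of rhabdoid tumours.

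The values are RMA signals on the log2 scale, so a difference of 1 is a 2-fold difference, and levels of different genes are not compared because each probe set has its own brightness. Smarcb1 signal stood at 9.61 in Smarcb1 cells and 6.01 in empty-vector cells of line 365, and at 7.83 and 4.61 in the same order in line 167, which matches the labels (mean difference 3.41 ± 0.20, moderated SE; limma adjusted p = 0.0371). The median over all probe sets lay between 5.03 and 5.07 on the 4 arrays. Of the 34 members, 31 had a mean signal at or above the 30th percentile of all genes (log2 4.27) and were tested together with all other such genes, 13956 in total. Mx1, Mx2 and Oas2 lay below that limit and are given as values. For arrays, their number limits the precision, and here the only replication of the Smarcb1 comparison is that of 2 tumour lines.

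With Smarcb1, most interferon-stimulated genes had lower signal, and the difference was larger in line 167. The median change, Smarcb1 minus empty vector, was -0.15 in line 365 and -0.52 in line 167 over the 31 tested members, against -0.01 and -0.06 over all tested genes. In line 365 the members' changes ran between -1.31 and 0.74, and in line 167 between -1.69 and 0.65. Over all 34 members, with no limit on signal, the medians were -0.12 in line 365 and -0.52 in line 167. Lower with Smarcb1 were 21 members in line 365 (67.7%, against 50.9% of all tested genes) and 27 in line 167 (87.1%, against 57.2%). Lower in both lines were 18 of the 31 tested members, or 58.1%, where 34.1% of all tested genes were lower in both. Any negative change counts as lower here, however small. By role, the genes lower in both lines were 10 of 17 effectors, 3 of 4 RNA sensors, 1 of 4 transcription regulators, 1 of 3 genes of the ISG15 pathway and all 3 of the Parp14, Dtx3l and Parp9 group. Oasl1 was the 1 tested member higher in both lines, where 26% of all tested genes were higher in both.

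At the level of single genes, limma's test of Smarcb1 against empty vector, with the cell line in the model, called 0 of the 31 members at an adjusted p below 0.05, against 9 genes or 0.0645% of all tested genes. All 9 were higher, and 0% of all tested genes were called lower. At an adjusted p below 0.10 it called 0 members, against 0.738% of all tested genes. At an unadjusted p below 0.05 it held 7 members (22.6%, against 11.6% of all tested genes). Of these, 6 were lower (19.4%, against 5.68%), namely Ifit3, Ifit1, Bst2, Parp14, Xaf1 and Dhx58, and Oasl1 was higher (3.23%, against 5.88%). At least 1.5-fold lower were 3 members in line 365 (Ifit3, Ifit1 and Irf1), or 9.68% against a background of 4.75%, and 14 members in line 167, or 45.2% against 7.80%. Ifit1 and Ifit3 were the 2 members at least 1.5-fold lower in both lines, against 1.35% of all tested genes. They were also the 2 members at least 2-fold lower in line 365 (background 1.17%) and in both lines (background 0.186%). In line 167, 7 members were at least 2-fold lower (22.6%, background 1.49%), adding Irf7, Dhx58, Usp18, Rtp4 and Bst2, and Oasl1 was the 1 member at least 1.5-fold higher (background 6.93%). Changes of single lines rest on 1 array against 1 and carry no test.

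**Figure D1:**
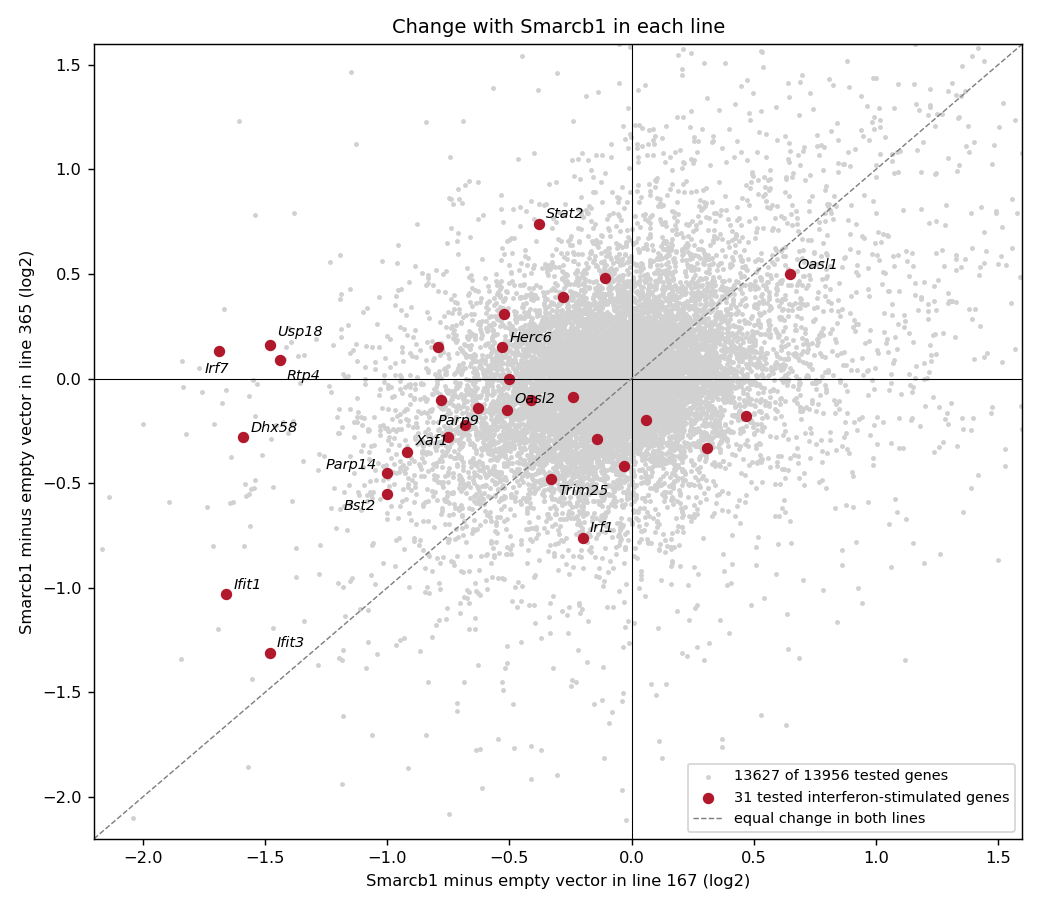
Change with Smarcb1 (log2, Smarcb1 minus empty vector) in line 167 on the horizontal axis and line 365 on the vertical axis, with 1 point per gene, for the 31 tested interferon-stimulated genes (red) and 13627 of the 13956 tested genes (grey; 329 lie outside the axes). Ifit1 and Ifit3 sit far down and left, while Irf7, Usp18 and Rtp4 lie far left at a change near 0 in line 365.

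Among the antiviral effectors, Ifit3 and Ifit1 had the largest mean decreases of all tested members. Ifit1 encodes a protein that binds the ends of foreign RNA and holds back its translation, and both genes lie in 1 gene cluster on chromosome 19. Ifit3 stood at 4.87 in Smarcb1 cells and 6.18 in empty-vector cells of line 365, and at 5.93 in Smarcb1 cells and 7.41 in empty-vector cells of line 167. Both Smarcb1 arrays were below both empty-vector arrays. This held for 7 of the 31 members (22.6%) and for 15.5% of all tested genes. The mean change of Ifit3 was -1.40 ± 0.19 (moderated SE, 2 lines; 95% interval -1.89 to -0.90), or 2.64-fold lower, with limma adjusted p = 0.112.

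Ifit1 stood at 4.60 in Smarcb1 cells and 5.63 in empty-vector cells of line 365, and at 6.32 in Smarcb1 cells and 7.98 in empty-vector cells of line 167. Smarcb1 cells were lower within each line, but the groups overlapped, since line 365 with empty vector was below line 167 with Smarcb1. On average Ifit1 differed by -1.34 ± 0.23 (moderated SE; 95% interval -1.96 to -0.73; limma adjusted p = 0.166). Ifit2, the neighbouring member of the same cluster, differed little, with 7.42 in Smarcb1 cells and 7.51 in empty-vector cells of line 365 and 7.68 and 7.91 in the same order in line 167 (adjusted p = 0.751).

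Bst2 encodes tetherin, which holds budding virus particles at the cell surface. Its signal was 9.69 in Smarcb1 cells and 10.24 in empty-vector cells of line 365, and 8.61 in Smarcb1 cells and 9.61 in empty-vector cells of line 167. Smarcb1 cells were again the lower ones within each line, and the groups overlapped, since line 365 with Smarcb1 was above line 167 with empty vector. Averaged over the lines the difference was -0.78 ± 0.16 (moderated SE; 95% interval -1.21 to -0.35; limma adjusted p = 0.219).

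The promoter stretches of these 3 genes are shown because they were lowest by p and all hold the core of the response element. Each line gives the 180 bases before the RefSeq start in build GRCm38.p6, 5′ to 3′ on the gene's strand, with matches to that core on either strand in capitals. The core was read as GAAA, any 2 bases and GAAA, which appears from the other strand as TTTC, any 2 bases and TTTC. The stretch of Ifit1 is chr19:34640709-34640888 on the plus strand, that of Ifit3 is chr19:34583349-34583528 on the plus strand, and that of Bst2 is chr8:71537473-71537652 on the minus strand.
Ifit1: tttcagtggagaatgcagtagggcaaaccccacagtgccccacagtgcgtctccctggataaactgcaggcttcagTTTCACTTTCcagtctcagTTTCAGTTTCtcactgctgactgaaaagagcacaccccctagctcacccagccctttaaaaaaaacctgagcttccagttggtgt
Ifit3: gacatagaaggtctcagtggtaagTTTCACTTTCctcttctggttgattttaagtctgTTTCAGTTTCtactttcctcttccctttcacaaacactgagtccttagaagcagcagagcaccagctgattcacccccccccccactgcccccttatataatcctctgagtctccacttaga
Bst2: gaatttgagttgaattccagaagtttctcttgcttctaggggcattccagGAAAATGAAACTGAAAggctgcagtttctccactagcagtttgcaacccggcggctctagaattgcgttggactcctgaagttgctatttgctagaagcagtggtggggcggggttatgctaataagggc

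In Ifit1 the matches begin 104 and 85 bases before the start and in Ifit3 156 and 122 bases before it. In Bst2 the matches begin 130 and 124 bases before the start and overlap each other, and the first also overlaps a TTCCAGGAA that begins 136 bases before the start. A RefSeq window of 250 bases before to 50 after the start was at hand for 26 members, all of them tested, and the core occurred in 12 of them. It occurred in 3.99% of all genes with such a window, and in 3.44% of all windows. Members with and without a match had like changes, with medians of -0.19 and -0.10 in line 365 over 12 and 14 genes. In line 167 these medians were -0.45 and -0.46. The tested members Dhx58, Usp18, Rtp4, Parp14 and Parp9 had no such window and stand in neither group. Their changes ran between -0.45 and 0.16 in line 365 and between -1.59 and -0.75 in line 167. A match is a description of the sequence and was not tested as a binding site.

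Xaf1, whose product opposes the apoptosis inhibitor XIAP, stood at 5.25 in Smarcb1 cells and 5.60 in empty-vector cells of line 365, and at 6.0 in Smarcb1 cells and 6.92 in empty-vector cells of line 167. It was lower with Smarcb1 in both lines, by 0.63 ± 0.23 on average (moderated SE; limma adjusted p = 0.406). Rtp4, a chaperone of membrane receptors, had 6.35 in Smarcb1 cells and 6.26 in empty-vector cells of line 365, against 6.16 in Smarcb1 cells and 7.60 in empty-vector cells of line 167. The empty-vector array of line 167 thus stood above the other arrays, which were alike.

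Genes of the oligoadenylate synthetase family, whose enzymes activate the RNA-cutting enzyme RNase L, did not share a direction. Oasl1, an enzymatically inactive relative that in mice restrains translation of Irf7 RNA, stood at 6.03 in Smarcb1 cells and 5.53 in empty-vector cells of line 365, and at 5.95 in Smarcb1 cells and 5.30 in empty-vector cells of line 167. Both Smarcb1 arrays were above both empty-vector arrays, which was so for 1 of the 31 members and 13.6% of all tested genes. On average it differed by 0.57 ± 0.18 (moderated SE; limma adjusted p = 0.357). Its neighbour Oasl2 was lower by 0.15 in line 365 and by 0.51 in line 167 (adjusted p = 0.587). Oas1a differed by 0.39 and -0.28 in lines 365 and 167, and Oas3 by -0.20 and 0.06, both with adjusted p of 0.884 or higher.

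The other tested effectors gave adjusted p of 0.546 or higher. Ifitm3, which blocks fusion of virus with endosomes, had changes of -0.42 in line 365 and -0.03 in line 167. The RNA exonuclease gene Isg20 had -0.10 and -0.41, and Ifi35 had 0.00 and -0.50. The line 365 value of Ifi35 was negative before rounding and is counted as lower. Rsad2, which encodes viperin, had -0.33 and 0.31, and its neighbour Cmpk2, a mitochondrial nucleotide kinase gene, had -0.29 and -0.14. The guanylate-binding protein gene Gbp3 had -0.18 and 0.47, and the antiviral factor gene Samd9l had 0.48 and -0.11. None of these was at least 1.5-fold different in line 365, and none in line 167.

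The genes below the signal limit were the dynamin-like GTPase genes Mx1 and Mx2 and the synthetase gene Oas2. Mx2 stood at 3.92 in Smarcb1 cells and 3.78 in empty-vector cells of line 365, and at 3.89 in Smarcb1 cells and 5.43 in empty-vector cells of line 167. The empty-vector array of line 167 alone was above the limit, so the size of that difference is uncertain. Mx1 lay between 3.56 and 4.02 on all arrays and Oas2 between 3.76 and 4.24, where signal above background was not shown. Most inbred laboratory mouse strains carry a defective Mx1 allele.

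**Figure D2:**
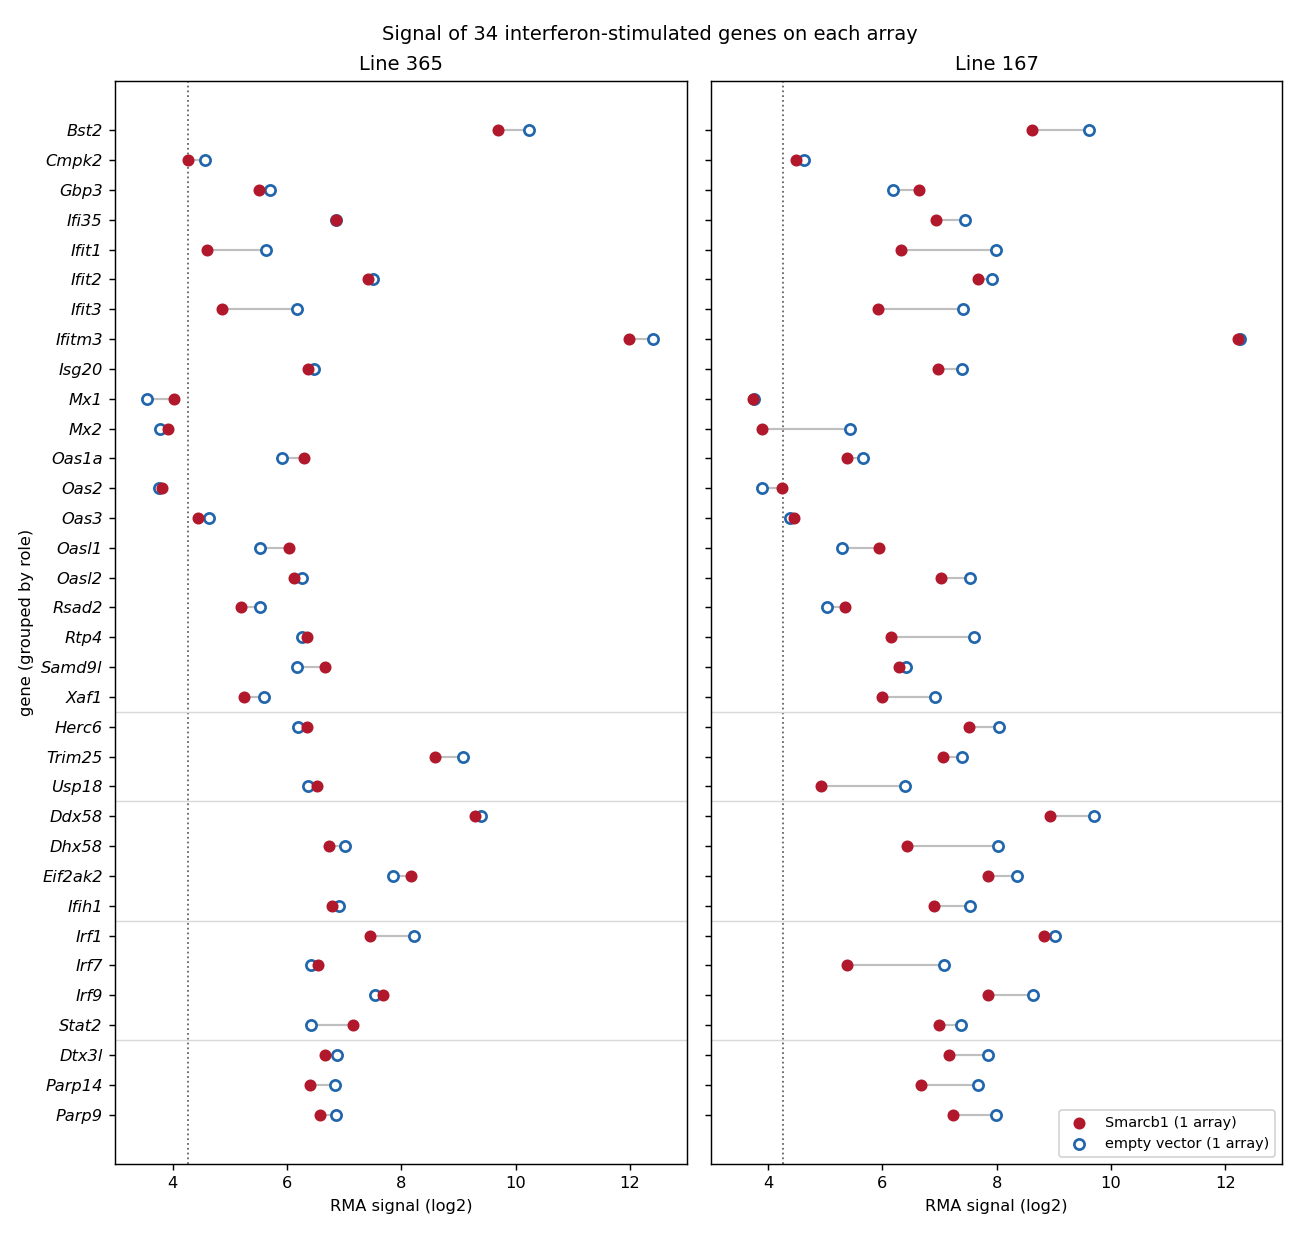
RMA signal (log2) of the 34 interferon-stimulated genes on each array, line 365 on the left and line 167 on the right, with Smarcb1 cells as filled red points, empty-vector cells as open blue points and genes grouped by role. The dotted line is the signal limit of 4.27, and in line 167 most red points lie left of the blue ones, as for Dhx58 at 6.43 against 8.02.

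The RNA sensors had lower signal with Smarcb1 in line 167 and small differences in line 365. Dhx58 encodes LGP2, which tunes signalling by the other sensors of its family. It stood at 6.73 in Smarcb1 cells and 7.01 in empty-vector cells of line 365, and at 6.43 in Smarcb1 cells and 8.02 in empty-vector cells of line 167. Both Smarcb1 arrays were below both empty-vector arrays, and the decrease was 1.22-fold in line 365 and 3.01-fold in line 167. Its average difference was -0.94 ± 0.35 (moderated SE; limma adjusted p = 0.421).

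Ddx58, which encodes RIG-I, had 9.29 in Smarcb1 cells and 9.39 in empty-vector cells of line 365, and 8.93 in Smarcb1 cells and 9.70 in empty-vector cells of line 167. Ifih1, which encodes MDA5, had 6.79 and 6.92 in the same order in line 365 and 6.90 and 7.53 in line 167. In both genes the Smarcb1 arrays lay below both empty-vector arrays, by a narrow margin, which for Ddx58 was within line 365 and for Ifih1 between line 167 with Smarcb1 and line 365 with empty vector (adjusted p = 0.501 and 0.563). Eif2ak2 encodes PKR, the kinase that stops translation on viral RNA. It went opposite ways, with a change of 0.31 in line 365 and -0.52 in line 167 (adjusted p = 0.9).

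Among the transcriptional regulators, Irf7, Stat2 and Irf9 had changes of opposite sign in the lines, a difference that has no test. Irf7, the factor that amplifies production of type I interferons, stood at 6.55 in Smarcb1 cells and 6.42 in empty-vector cells of line 365, and at 5.39 in Smarcb1 cells and 7.07 in empty-vector cells of line 167. Line 167 thus held both the highest and the lowest Irf7 array. Its change was 0.13 in line 365 and -1.69 in line 167, or 3.22-fold lower, and the mean change had limma adjusted p = 0.576.

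Stat2 stood at 7.16 in Smarcb1 cells and 6.42 in empty-vector cells of line 365, and at 7.0 in Smarcb1 cells and 7.38 in empty-vector cells of line 167. It was the 1 tested member at least 1.5-fold higher in line 365, where 6.49% of all tested genes were, and it was lower in line 167 (adjusted p = 0.859). Irf9, its partner in ISGF3, had changes of 0.15 in line 365 and -0.79 in line 167 (adjusted p = 0.693).

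Irf1, a factor strongly induced by interferon gamma, showed the larger difference in line 365. It stood at 7.46 in Smarcb1 cells and 8.22 in empty-vector cells of line 365, and at 8.82 in Smarcb1 cells and 9.02 in empty-vector cells of line 167 (mean change -0.48 ± 0.20, moderated SE; limma adjusted p = 0.46). A dimmer probe set of Irf1 gave changes of -0.54 in line 365 and 0.06 in line 167. STAT dimers bind another element, read here as TTCNNNGAA, which is its own reverse complement. Irf1 holds it 90 bases before 1 of its 2 RefSeq starts, as do 8 of the 26 members in their windows and 9.55% of all genes. The 180 bases before that start, chr11:53769834-53770013 on the plus strand of GRCm38.p6, are shown with the match in capitals, to set this element beside that of Ifit1.
Irf1: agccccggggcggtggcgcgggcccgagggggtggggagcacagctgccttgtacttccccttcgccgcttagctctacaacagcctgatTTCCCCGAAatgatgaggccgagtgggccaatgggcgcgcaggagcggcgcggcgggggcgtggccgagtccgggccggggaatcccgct

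ISG15 is a ubiquitin-like protein that is attached to other proteins during the response. Usp18 removes it and also shuts down the interferon receptor. Usp18 stood at 6.53 in Smarcb1 cells and 6.37 in empty-vector cells of line 365, and at 4.93 in Smarcb1 cells and 6.40 in empty-vector cells of line 167. The empty-vector arrays of both lines were nearly alike, and the Smarcb1 array of line 167 stood apart below the other arrays. Its changes were 0.16 and -1.48 in lines 365 and 167 (adjusted p = 0.599). Herc6, which in mice attaches ISG15, had changes of 0.15 in line 365 and -0.53 in line 167 (adjusted p = 0.796). Trim25, a ubiquitin ligase that acts on RIG-I signalling, was lower by 0.48 in line 365 and by 0.33 in line 167 (adjusted p = 0.45).

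Parp14, Dtx3l and Parp9 are neighbours on chromosome 16, and DTX3L and PARP9 act as a complex in which ubiquitin ligase and ADP-ribosyltransferase are joined. All 3 were lower with Smarcb1 in both lines. Parp14 stood at 6.40 in Smarcb1 cells and 6.85 in empty-vector cells of line 365, and at 6.67 in Smarcb1 cells and 7.67 in empty-vector cells of line 167. Its Smarcb1 arrays lay below both empty-vector arrays, with a mean change of -0.72 ± 0.22 (moderated SE; limma adjusted p = 0.348). Parp9 had 6.58 in Smarcb1 cells and 6.86 in empty-vector cells of line 365, and 7.23 and 7.98 in the same order in line 167, with adjusted p = 0.451. Dtx3l differed by -0.22 in line 365 and -0.68 in line 167 (adjusted p = 0.501).

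**Figure D3:**
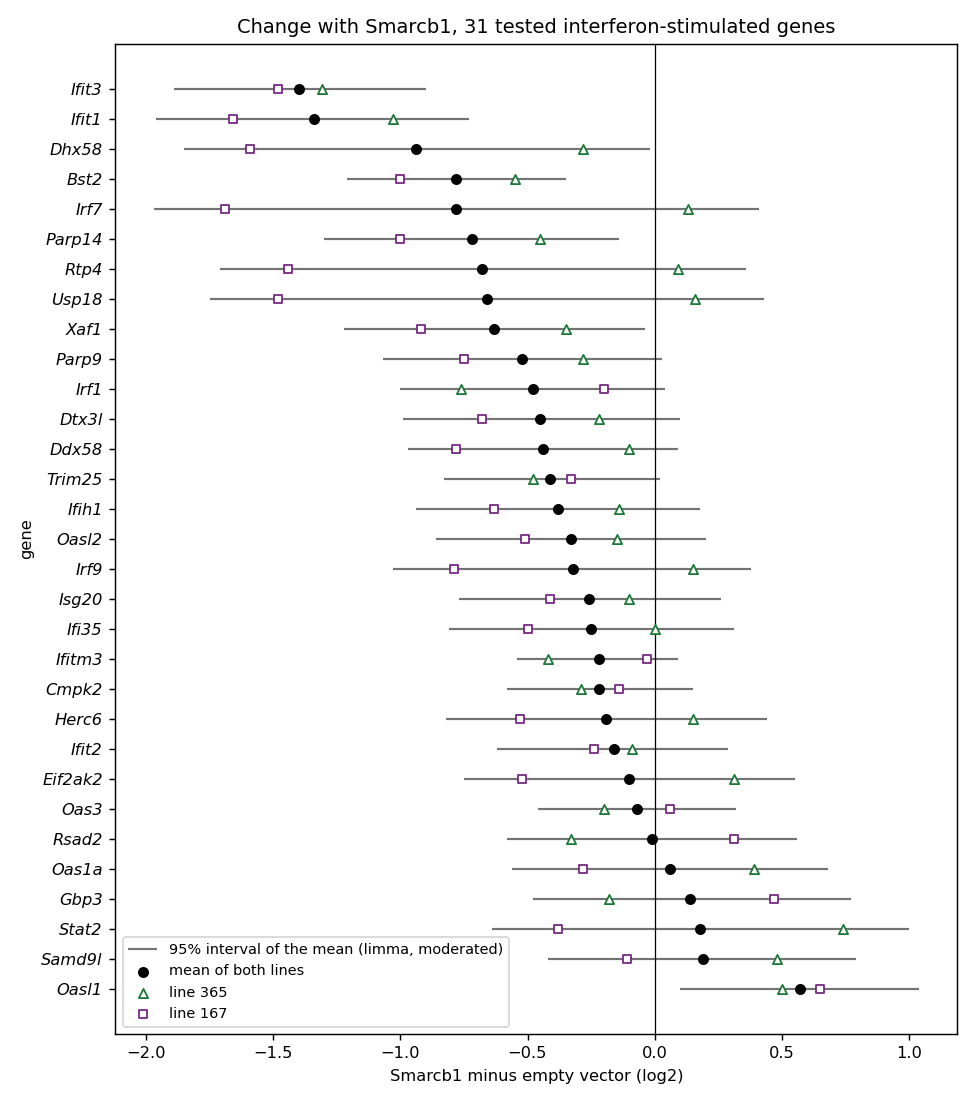
Smarcb1 minus empty vector (log2) for the 31 tested interferon-stimulated genes, as the mean of both lines (black), its unadjusted 95% interval from limma (grey bar), line 365 (green triangles) and line 167 (purple squares). Ifit3 and Ifit1 lead the list at -1.40 and -1.34, and Irf7, Rtp4 and Usp18 have the widest gaps between the lines.

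The responses of the lines differed by at least 2-fold in 5 members (Irf7, Usp18, Rtp4, Dhx58 and Stat2), or 16.1%, against 5.36% of all tested genes. The changes of line 365 lay above those of line 167 by 1.82 for Irf7, 1.63 for Usp18, 1.53 for Rtp4, 1.30 for Dhx58 and 1.12 for Stat2. Opposite signs in the lines were found in 12 members (38.7%), against 39.8% of all tested genes. With 1 array per line and vector this difference has no test.

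Between the tumour lines themselves, several interferon-stimulated genes differed. The limma fit called 7 of the 31 members for line 365 against line 167 at an adjusted p below 0.05, or 22.6%, where 10.9% of all tested genes were called. In line 365, 5 were lower (16.1%, background 5.64%) and 2 were higher (6.45%, background 5.31%). At an adjusted p below 0.10 it held 11 members (35.5%, background 20.9%). Both line 365 arrays were below both line 167 arrays in 12 members (38.7%, background 29.1%) and above them in 3, Trim25, Bst2 and Oas1a (9.68%, background 26.7%). This test takes the arrays with both vectors as the repeats of a line, so it compares 2 tumours and not kinds of tumour.

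Ifit1 was lower in line 365, by 2.03 ± 0.23 (moderated SE, 2 arrays per line; limma adjusted p = 0.0148), or 4.09-fold. Herc6 was lower by 1.5 ± 0.24 (adjusted p = 0.0296), with 6.35 and 6.20 in Smarcb1 and empty-vector cells of line 365, against 7.51 and 8.04 in those of line 167. Ifit3 was lower by 1.14 ± 0.19 (adjusted p = 0.0326), Oasl2 by 1.09 ± 0.20 (adjusted p = 0.0402) and Irf1 by 1.08 ± 0.20 (adjusted p = 0.0396). Oasl2 had 6.12 and 6.27 in Smarcb1 and empty-vector cells of line 365, against 7.03 and 7.54 in those of line 167. The Irf1 call ended with the mean of its probe sets (a difference of -0.70, adjusted p = 0.118, where the settings tried gave 0.0216 to 0.118).

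Trim25 and Bst2 were higher in line 365. Trim25 had 8.60 and 9.08 in Smarcb1 and empty-vector cells of line 365, against 7.06 and 7.39 in those of line 167, a difference of 1.61 ± 0.16 (moderated SE; limma adjusted p = 0.0109). Bst2 differed by 0.86 ± 0.16 (adjusted p = 0.0417). The Bst2 and Irf1 calls ended without the intensity trend, at adjusted p = 0.0638 and 0.0507, and over the settings tried Bst2 ranged between 0.0245 and 0.0638.

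In the median over members, the lines differed less with Smarcb1 than with empty vector, which was not tested. With Smarcb1 in both lines the median of line 365 minus line 167 was -0.14 over the 31 members, and with empty vector it was -0.61, against 0.00 and -0.03 over all tested genes. In these medians differences of opposite sign offset each other. With the sign set aside, the median difference was 0.36 with Smarcb1 and 0.66 with empty vector, against 0.28 and 0.33 over all tested genes. With Smarcb1, 9 members were at least 1.5-fold lower in line 365 (background 11.3%), and with empty vector 16 were, or 51.6% (background 16.5%). Line 365 was the lower line in 19 members with Smarcb1 (background 49.6%) and in 24 with empty vector (background 53%). The lines lay closer together with Smarcb1 than with empty vector in 21 members, or 67.7%, against 57.6% of all tested genes. These values come from the same 4 arrays as the changes with Smarcb1 and restate them from the side of the lines. Rtp4 is an example, with a difference of 0.19 with Smarcb1 and -1.34 with empty vector. Usp18 and Irf7 went the other way, with 1.6 and 1.16 with Smarcb1 and -0.03 and -0.66 with empty vector.

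**Figure D4:**
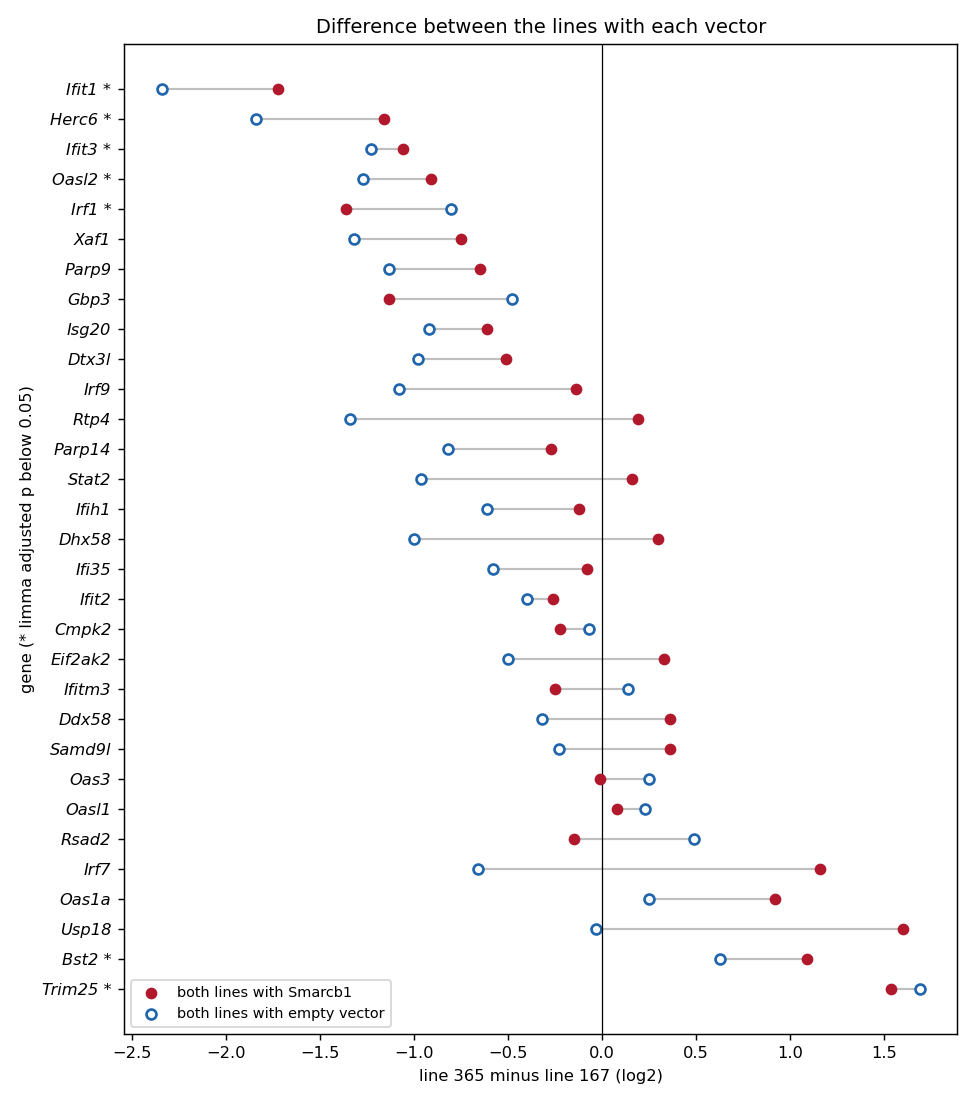
Line 365 minus line 167 (log2) for the 31 tested interferon-stimulated genes, with Smarcb1 in both lines (filled red) and with empty vector in both lines (open blue); stars mark limma adjusted p below 0.05 for the mean of the pair. Most open points lie left of 0, with a median of -0.61, and the filled ones are centred nearer to 0, at -0.14.

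Upstream of these genes, a list of 42 ligand, receptor and signalling genes was examined, and interferon genes outside it were not looked up. In this list, 9 interferon genes had a probe set of their own. Below the signal limit were 5 of them, among them the interferon beta gene Ifnb1, which lay between 3.42 and 3.76 on the 4 arrays, and the interferon gamma gene Ifng, between 3.32 and 3.58. The other 4 were tested, with Ifnz between 6.71 and 7.18, Ifnl2 between 5.74 and 6.42, Ifna5 between 5.64 and 5.92 and Ifna2 between 4.90 and 5.33. None of these 4 was called for Smarcb1 by limma, with adjusted p of 0.616 or higher. The receptor gene Ifnar1 differed by 0.16 and 0.12 in lines 365 and 167 (adjusted p = 0.735), Ifnar2 by 0.09 and 0.52 (adjusted p = 0.578) and the kinase gene Tyk2 by 0.75 and -0.16 (adjusted p = 0.728). Of all 42 genes of this list, 36 had a probe set of their own and 29 were tested. Limma called 0 of the 29 for Smarcb1. Higher in both lines were 9 of the 29 and lower in both were 8, against 26% and 34.1% of all tested genes. At an unadjusted p below 0.05, 2 were lower and 2 higher (background 5.68% and 5.88%). The kinase gene Jak1 (0.56 and 0.71, adjusted p = 0.177) and the shared receptor chain gene Il10rb (0.58 and 0.41, adjusted p = 0.316) were the higher ones. The adaptor gene Myd88 (-0.89 and -0.73, adjusted p = 0.179) and the RNA sensor gene Tlr3 (-1.01 and -0.67, adjusted p = 0.261) were the lower ones.

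A wider list of 56 other interferon-induced genes held 38 tested genes, and the sign was negative in both lines for 21 and positive in both for 5, against 34.1% and 26% of all tested genes. Their median change was -0.08 in line 365 and -0.51 in line 167. Limma called 0 of them, and at an unadjusted p below 0.05 it held 9 lower and 1 higher, against 5.68% and 5.88% of all tested genes. Smallest in p were Trim30a (-0.81 and -0.93, adjusted p = 0.166), the antiretroviral deaminase gene Apobec3 (-0.88 and -0.73, adjusted p = 0.190), Ifi27l2a (-0.71 and -1.56, adjusted p = 0.266) and the large ubiquitin ligase gene Rnf213 (-0.56 and -1.58, adjusted p = 0.284), each given for line 365 and then line 167. Between the lines, the fit called 8 of the 38 lower and 2 higher in line 365, and among the 29 signalling genes 6 lower and 1 higher, where 5.64% of all tested genes were called lower and 5.31% higher.

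Of the mesenchymal markers, Vim lay between 13.27 and 13.53 on all arrays, while some others differed between the lines, not all in the same direction. Col3a1, a fibrillar collagen gene, had 6.24 and 6.14 in Smarcb1 and empty-vector cells of line 365, against 11.65 and 11.12 in those of line 167 (limma adjusted p = 0.00223). Pdgfrb, a growth factor receptor gene, had 5.03 and 5.12 in line 365, against 9.36 and 8.95 in line 167 (adjusted p = 0.00348). Col1a1 had 6.41 and 6.38 in line 365, against 10.56 and 7.91 in line 167 (adjusted p = 0.0559). Col1a2 had 5.75 and 5.75 in line 365, against 8.76 and 7.02 in line 167 (adjusted p = 0.0491). S100a4 went the other way, with 10.74 and 10.76 in line 365, against 10.13 and 9.86 in line 167 (adjusted p = 0.0341). Pdgfra and Thy1 were not called between the lines (adjusted p = 0.602 and 0.438). Of 14 leukocyte markers 12 had a probe set and 3 were tested, while the pan-leukocyte gene Ptprc lay between 3.66 and 4.06, below the signal limit. The summed linear signal of the 12 was 491 in Smarcb1 cells and 1180 in empty-vector cells of line 365, and 600 and 820 in the same order in line 167. Most of that sum was Cd68, a lysosomal protein gene, with 8.18 in Smarcb1 cells and 9.95 in empty-vector cells of line 365 and 8.69 and 9.32 in line 167 (adjusted p = 0.273). The other tested ones were Csf1r, between 4.70 and 5.19, and Cd3e, between 4.76 and 5.22, while the macrophage gene Adgre1 lay between 3.65 and 3.70. The part of the Cd68 difference in the interferon-stimulated genes was not tested. The 4 plasmacytoid dendritic cell markers had summed linear signals of 1740 and 1900 in Smarcb1 and empty-vector cells of line 365, against 724 and 1140 in those of line 167. Of these, Siglech lay between 4.20 and 4.39 and Ly6d between 4.61 and 5.01, Tcf4 lay between 8.14 and 9.76, and Bst2 is itself an interferon-stimulated gene described here. The 5 endothelial markers summed to 384 and 601 in Smarcb1 and empty-vector cells of line 365, against 78.3 and 73.2 in those of line 167, and Cdh5 carried that difference. Cdh5, an endothelial cadherin gene, had 8.29 and 9.06 in line 365, against 3.64 and 3.78 in line 167 (adjusted p = 0.00296). Pecam1 lay between 3.95 and 4.35 on all arrays, Kdr between 4.33 and 4.80, Tek between 3.75 and 3.98 and Emcn between 3.19 and 3.47. The part of Cdh5, Col3a1, Col1a2, Pdgfrb, S100a4 and Tcf4 in the differences between the lines was not tested. The sums of the 8 mesenchymal markers were 12900 and 12300 in line 365 and 17800 and 16200 in line 167, mostly from Vim, Smarcb1 cells before empty-vector cells. In the same order, those of the 5 epithelial markers were 452 and 199 in line 365 and 243 and 158 in line 167. Krt19 carried that difference, with 8.27 and 5.59 in line 365 and 6.52 and 4.67 in line 167 (limma adjusted p = 0.0891 for Smarcb1). Epcam lay between 3.79 and 4.09 on all arrays, Cdh1 between 4.57 and 4.77, Krt8 between 5.63 and 6.04 and Krt18 between 5.25 and 5.64. In bulk RNA, fewer cells with a gene switched on and less RNA per cell cannot be told apart.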

How the data were processed

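RNA from 4 cultures (2 lines, each with Smarcb1 or empty vector) was measured on whole-transcript arrays. The log2 signals per probe set are the deposited ones: the submitters' processing notes name RMA and Affymetrix Expression Console, and their versions and settings were not at hand. No further normalization was applied. The platform annotation gives 1 symbol to 21789 of 35556 probe sets and several to 1621, and does not list 12146. Each of 19938 genes was represented by its brightest probe set, and tests were run on the 13956 genes at or above the 30th percentile of gene means (log2 4.27). The model held cell line and vector (limma 3.58.1 in R 4.3.3, eBayes with intensity trend), with 1 residual degree of freedom and 3.75 prior ones. P-values are two-sided with Benjamini-Hochberg adjustment across those genes and a threshold of 0.05. The spread they use is the gap between the Smarcb1 changes of the 2 lines, moderated across genes, which may be technical. It is not a spread between repeat cultures. A gene whose changes differ more between the lines thus gets a larger p at the same mean change and signal. The cell lines pair the arrays, by the labels: same-line deviations from the vector means correlated at 0.77 across genes. The code was tested on simulated data. Promoter sequences are RefSeq's (GRCm38.p6), and 26 of 34 members matched by symbol. The members and lists were chosen with earlier results of these data known. Given with all 4 values are members past a test, the 10 of smallest vector p with the same sign in both lines, the 5 largest line differences and the 4 widest gaps among opposite changes.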

Additional observations from a re-analysis of the deposited data

Results flagged for a closer look

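In 12 of the 31 tested members (38.7%, against 39.8% of all tested genes) the single array pair of line 365 and that of line 167 moved in opposite directions, which was not tested. The change in line 365 minus that in line 167 was 1.82 for Irf7, 1.63 for Usp18, 1.53 for Rtp4, 1.12 for Stat2, 0.94 for Irf9, 0.83 for Eif2ak2, 0.69 for Herc6, 0.67 for Oas1a and 0.59 for Samd9l. These 9 were higher with Smarcb1 in line 365 and lower in line 167. The value was -0.65 for Gbp3, -0.63 for Rsad2 and -0.26 for Oas3, which were lower with Smarcb1 in line 365 and higher in line 167.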

How the results depend on the processing

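For the Smarcb1 comparison, limma called 0 members and 0 genes of the interferon pathway lists at an adjusted p below 0.05. This held under each of the alternative filters, normalizations, probe set rules and variance settings. At an adjusted p below 0.10, counted in the main fit only, it also called 0 of them. The limma adjusted p of Ifit3 and Ifit1 was 0.112 and 0.166 in the main fit. It was lowest with the signal limit at the 50th percentile, at 0.0556 and 0.0888. Over all genes, where 9 were called, the number was 68 without the signal limit and 101 with it at the 50th percentile. It was 71 with quantile normalization, 28 with cyclic loess and 103 if the adjusted p may reach 0.10. With no replicate block, that is without the pairing by cell line, 0 genes and 0 members were called. At an adjusted p below 0.10 the line comparison held 2915 genes and 11 members. The median of the members' mean change was -0.33, and it ran between -0.52 and -0.15 when 1 line was left out. With a stricter response element, in which CT follows the core, 7 of the 26 members with a window had a match, against 0.303% of all genes. No call can be made with 1 line left out, since 1 array then stands against 1. Xaf1 and Parp9 passed the line test under some settings, with lowest adjusted p of 0.036 and 0.0376.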

Other observations

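Some genes of the wider list of interferon-induced genes were picked out after their values were seen. The chemokine gene Cxcl10 stood at 6.90 in Smarcb1 cells and 9.45 in empty-vector cells of line 365, and at 6.38 in Smarcb1 cells and 6.25 in empty-vector cells of line 167. The empty-vector array of line 365 alone was high, the reverse of the pattern of Irf7 or Rtp4, where the empty-vector array of line 167 was the highest (limma adjusted p = 0.543). The lysosomal thiol reductase gene Ifi30 was lower in line 365, with 5.89 and 5.70 in Smarcb1 and empty-vector cells, against 9.81 and 11.11 in those of line 167 (adjusted p = 0.00706). The chemokine gene Ccl5 was also lower in line 365, with 6.22 and 5.85 in Smarcb1 and empty-vector cells, against 8.40 and 8.65 in those of line 167 (adjusted p = 0.00936).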
